A study of Mus musculus with 8 samples.

Results

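The proteasome genes described here are the protein-coding genes whose symbols begin with Psm, then a letter from a to g and a digit, leaving out Psmb8 and Psmb9. Of the 54532 genes in the count table, 50 matched the name, 48 remained after Psmb8 and Psmb9 were left out, and 46 had at least 10 counts in at least 2 libraries. By textbook role, which the naming rule did not use, these 46 are 7 alpha ring subunits, 8 beta ring subunits, 6 ATPases and 11 non-ATPase subunits of the regulatory particle, 6 activator and inhibitor genes, 7 assembly chaperones and Psmc3ip, a meiotic recombination factor that carries the name but is not a proteasome subunit. The proteasome is the barrel-shaped protease that degrades ubiquitin-tagged proteins. Outer alpha rings gate the barrel, inner beta rings hold its peptidase sites, and a regulatory particle with an ATPase ring recognises, unfolds and feeds in the substrate. In neurons it controls the turnover of synaptic and misfolded proteins, and its subunit genes are known to be transcribed together, in part through the factor Nfe2l1 when proteasome activity is low.

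RNA came from the brains of mice perfused with saline. The 4 groups were wild-type mice given mock treatment (WT mock), wild-type mice under chronic restraint stress (WT stress), mice with cerebral amyloid angiopathy, a deposition of amyloid in vessel walls, given mock treatment (CAA mock), and CAA mice under the same stress (CAA stress). Each group had 2 libraries. No label used here states the strain, the transgene or mutation behind CAA, the age or the sex. Nor does any say that the libraries of a group came from separate animals, so the p-values reflect the spread between libraries. In WT mock and in CAA stress the 2 libraries differed in sex by the Xist and Y-linked counts given below, so they were not repeats of the same animal. For WT stress and CAA mock those counts do not settle this. Regional markers, described below, differed within both groups. Choroid plexus markers summed to 212 and 983 CPM in WT stress, and striatal markers to 1183 and 195 CPM in CAA mock. Whether the libraries of these groups were separate animals was not tested, and part of the spread may be technical.

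The libraries held 17275201 to 18894657 counts, of which 55559 to 61162 fell on the 46 genes. A list of 10 neuronal markers summed to 7109 to 8845 CPM (library-scaled counts from edgeR, per 1000000 counts), as fits the labelled tissue. Several libraries stood apart within their groups. WT mock 1 and CAA stress 1 had 4575 and 3340 counts of Xist, which is expressed from the inactive X chromosome, and 0 counts over 4 Y-linked genes, against 0 to 24 and 2260 to 2833 counts in the other 6. In WT mock 1 and CAA mock 2, 12 striatal markers summed to 218 and 195 CPM, against 809 to 1591 in the others. Blood markers (5 genes) summed to 119 CPM in WT stress 1 against 2.25 to 16.7 in the others. Choroid plexus markers (10 genes) were at 983 and 795 CPM in WT stress 2 and CAA stress 1 against 163 to 394, and olfactory bulb markers (8 genes) were at 9.95 to 38.6 CPM in WT mock 1, both CAA mock libraries and CAA stress 1 against 91.0 to 112. Hypothalamic markers (12 genes) summed to 5.97 and 72.9 CPM in WT mock and 58.0 and 55.2 in WT stress. They summed to 125 and 22.8 CPM in CAA mock and 147 and 160 in CAA stress, so only CAA mock 2 fell within the WT range. Oligodendrocyte markers (8 genes) were at 15445 and 14165 CPM in CAA mock 2 and CAA stress 1, against 5953 to 9555 in the others. CAA stress 2 had the lowest share of counts from the mitochondrial genome, 6.10% against 7.89% to 9.99%. The part of these differences in the results below was not tested, and values without these libraries are given where they bear on a result.

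Proteasome genes were expressed at similar levels in all 8 libraries. Levels compared between genes are in FPKM, the authors' counts scaled for gene length and library size. For many of these genes the deposited length exceeds that of the longest protein-coding transcript, so ranks of genes by FPKM depend on it. The 32 structural subunits of the barrel and the regulatory particle had mean levels of 7.11 to 116 FPKM, with a median of 29.8. For each of these genes the highest library was divided by the lowest. The median of this ratio was 1.32 over the 32 structural subunits, and it was 1.47 over the 5557 tested genes with a mean in the same FPKM range, whose median level was lower, at 15.8 FPKM. Ratios stayed under 1.5 in 28 of the 32 structural subunits (87.5%) and in 54.65% of those 5557 genes. These shares describe the libraries and were not tested.

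**Figure D1:**
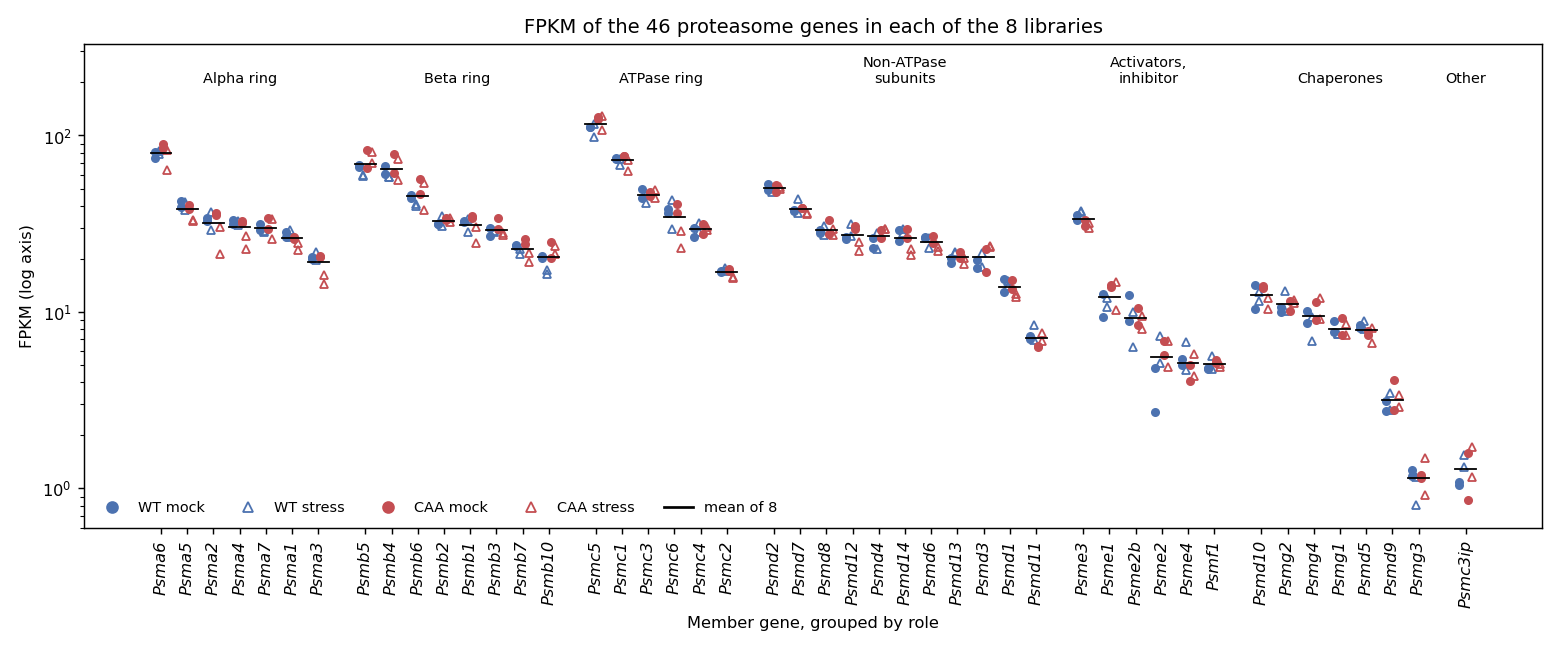
FPKM on a log axis for each of the 46 genes, grouped by role and ordered by mean, with 1 point per library (blue WT, red CAA, filled circles mock, open triangles stress) and a black line at the mean of the 8 libraries. Structural subunits lie between 7.11 and 116 FPKM, chaperones between 1.14 and 12.4, and Psme2 is the 1 gene whose libraries differ by more than 2-fold.

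The alpha ring genes encode the gate of the barrel. They ranged from Psma3, at 19.2 ± 2.5 FPKM (SD, n = 8), to Psma6, at 79.3 ± 7.5. In mean CPM the lowest of the ring was Psma5, at 51.1, and the highest Psma2, at 119. Psma3 lies on chromosome 12 (mm10, 70974621 to 70996347, plus strand). Its FPKM was 19.99 and 20.4 in WT mock, 21.97 and 19.7 in WT stress, 20.8 and 20.4 in CAA mock, and 16.2 and 14.5 in CAA stress. Both CAA stress libraries were thus below the other 6. Psma4 had the same low group, with 33.4 and 31.5 FPKM in WT mock, 32.6 and 31.1 in WT stress, 31.9 and 32.6 in CAA mock, and 26.8 and 22.9 in CAA stress. In CAA stress 2 the alpha ring genes had a median log2 CPM 0.30 under their own means over the 8 libraries, and in CAA stress 1 the median was 0.17 under.

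The beta ring holds the peptidase sites: Psmb6 has the caspase-like, Psmb7 the trypsin-like and Psmb5 the chymotrypsin-like activity, and Psmb10 takes the place of Psmb7 in the immunoproteasome, the form induced by interferon. In FPKM, Psmb5 was the highest of the ring at 69.1 ± 8.6 and Psmb10 the lowest at 20.6 ± 2.9. The rank of Psmb5 depends on gene length. Its deposited length equals its longest transcript, 899 bases, while that of Psmb6 is 1872 bases against 798. In mean CPM, Psmb1 was highest of the ring at 145 and Psmb5 was at 62.8. Psmb5 had 67.8 and 66.3 FPKM in WT mock, 60.1 and 59.3 in WT stress, 82.4 and 65.8 in CAA mock, and 80.8 and 70.2 in CAA stress. CAA mock 1 and CAA stress 1 were its highest libraries, and CAA mock 2 fell within the WT range.

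Psmb6 read 44.1 and 45.8 FPKM in WT mock, 39.7 and 40.9 in WT stress, 56.3 and 46.5 in CAA mock, and 54.1 and 37.6 in CAA stress. The same pair of CAA libraries was again highest, but CAA stress 2 was the lowest of all. For Psmb7 the values were 23.9 and 23.6 in WT mock, 22.8 and 21.4 in WT stress, 25.8 and 24.2 in CAA mock, and 21.5 and 19.3 in CAA stress, so that all 4 stress libraries lay below all 4 mock libraries. Psmb7 overlaps Nek6 on the opposite strand over 6571 bases, and no source used here says whether counting used strand.

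Psmb10 had 20.9 and 20.1 FPKM in WT mock, 16.4 and 17.2 in WT stress, 25.0 and 20.1 in CAA mock, and 23.6 and 21.3 in CAA stress. WT stress was the low group, and WT mock and CAA mock overlapped. The other immunoproteasome peptidases, Psmb8 and Psmb9, were near the lower limit of the table, at 0.35 to 0.72 and 0.15 to 0.44 FPKM. The FPKM ratio of Psmb10 to Psmb7, its constitutive counterpart, ran from 0.72 to 1.11, while Psmb8 to Psmb5 ran from 0.0052 to 0.012 and Psmb9 to Psmb6 from 0.0034 to 0.0099. In FPKM, Psmb10 thus stood near Psmb7 in every library, while Psmb8 and Psmb9 stood far under their counterparts. The first of these depends on the deposited gene lengths, 1705 bases for Psmb10 and 3421 for Psmb7. Their longest protein-coding transcripts have 1311 and 1160 bases. In CPM, which has no length scaling, Psmb10 had a mean of 35.5 and Psmb7 of 78.9.

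The upstream sequences of Psmb5 and Psmb6 are shown because both hold, right before the start of the gene, the core of the antioxidant response element, the motif through which Nfe2l1 and Nfe2l2 act on proteasome genes. Each is 60 bases of the RefSeq promoter window (GRCm38.p6), 5′ to 3′ on the gene's strand, with the motif TGACNNNGC in capitals. For Psmb5 it lies 47 to 39 bases before the start (chr14:54618008-54618067, minus strand), and for Psmb6 it lies 9 to 1 bases before it (chr11:70525297-70525356, plus strand).
Psmb5: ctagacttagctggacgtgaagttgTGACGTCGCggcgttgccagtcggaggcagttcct
Psmb6: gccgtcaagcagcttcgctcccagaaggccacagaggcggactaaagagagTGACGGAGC

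The ATPase ring unfolds substrates. Psmc5 had the highest FPKM of all 46 genes, 116 ± 11 (SD, n = 8), and Psmc2 the lowest of its ring, 16.8 ± 0.80. In mean CPM, Psmd2 was highest of the 46 at 205, and Psmc4 was lowest of the ATPase ring at 64.4. Psmc6 varied most within the ring. It lies on chromosome 14 (mm10, 45329788 to 45349705, plus strand) and had 36.6 and 38.4 FPKM in WT mock, 43.4 and 29.7 in WT stress, 36.3 and 41.1 in CAA mock, and 28.8 and 23.0 in CAA stress. CAA stress 2 was lowest and WT stress 1 highest, 1.88-fold apart, and WT stress 2 came close to CAA stress 1.

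Among the non-ATPase subunits of the regulatory particle, the scaffold subunit Psmd2 was highest, at 50.2 ± 2.1 FPKM, and had the smallest ratio of highest to lowest library of all 46 genes, 1.12. Psmd11, a scaffold subunit of the lid, was lowest at 7.11 ± 0.70. Psmd14 encodes the protease that removes ubiquitin chains from the substrate as it enters. Its FPKM was 25.1 and 29.0 in WT mock, 29.6 and 27.9 in WT stress, 26.2 and 29.5 in CAA mock, and 21.1 and 22.6 in CAA stress, the CAA stress libraries again lying under the other 6. Psmd12, a lid subunit, had 26.0 and 26.6 in WT mock, 31.7 and 26.9 in WT stress, 29.5 and 30.5 in CAA mock, and 24.9 and 22.1 in CAA stress. For Psmd12 the WT stress libraries were above WT mock and the CAA stress libraries below CAA mock.

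The activators open the barrel in place of the regulatory particle. Psme3, the nuclear activator, was highest of the class at 33.6 ± 2.7 FPKM, and Psmf1, which encodes an inhibitor of the barrel, was lowest at 5.04 ± 0.30. In mean CPM, Psme2b was lowest of the class at 7.83, and Psmf1 was at 32.8. Psme1 and Psme2 encode the subunits of the interferon-inducible activator. Psme1 had 9.40 and 12.6 FPKM in WT mock, 10.7 and 12.1 in WT stress, 14.2 and 13.8 in CAA mock, and 14.8 and 10.3 in CAA stress. The CAA mock pair was above WT mock, and CAA stress held both the highest library and the lowest but 1.

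Psme2 was the 1 gene with a highest library over 2 times its lowest in FPKM. In CPM, the highest library of Psmc3ip was also just over 2 times its lowest. The CPM of Psme2 was 8.55 and 4.83 in WT mock, 9.14 and 13.1 in WT stress, 10.2 and 12.2 in CAA mock, and 12.2 and 8.68 in CAA stress. WT mock 2 stood lowest and WT stress 2 highest, 2.71-fold apart. The gene has a near-identical copy, Psme2b, on another chromosome, and over 794 aligned bases of their longest protein-coding transcripts the 2 differ at 5. A stretch of 79 coding bases with 3 of the 5 is shown because reads over these bases can be told apart. The remaining differences are not shown, nor are the bases of the 2 transcripts (962 and 837 bases) outside the alignment. Differing bases are in capitals, and the Psme2b stretch is chr11:48945564-48945642 (mm10, minus strand).
Psme2: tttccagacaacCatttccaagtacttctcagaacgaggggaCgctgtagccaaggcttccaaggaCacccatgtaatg
Psme2b: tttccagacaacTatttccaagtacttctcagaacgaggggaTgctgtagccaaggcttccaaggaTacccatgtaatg

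At the extremes, Psme2b ran opposite to Psme2. Its CPM was 7.48 and 10.6 in WT mock, 8.43 and 5.35 in WT stress, 8.88 and 7.10 in CAA mock, and 8.01 and 6.80 in CAA stress, so that it was highest in WT mock 2, where Psme2 was lowest, and lowest in WT stress 2, where Psme2 was highest. In WT mock 1, CAA mock 1, CAA stress 1 and CAA stress 2 the log2 CPM of both lay on the same side of their means over the 8 libraries. Psme2 took from 31.4% to 71.0% of the counts of the pair. Their sum was steadier than either, at 15.4 to 20.2 CPM or 1.31-fold from lowest to highest. No source used here says how the authors' counting divided reads between the copies, so the value of each alone is uncertain.

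**Figure D2:**
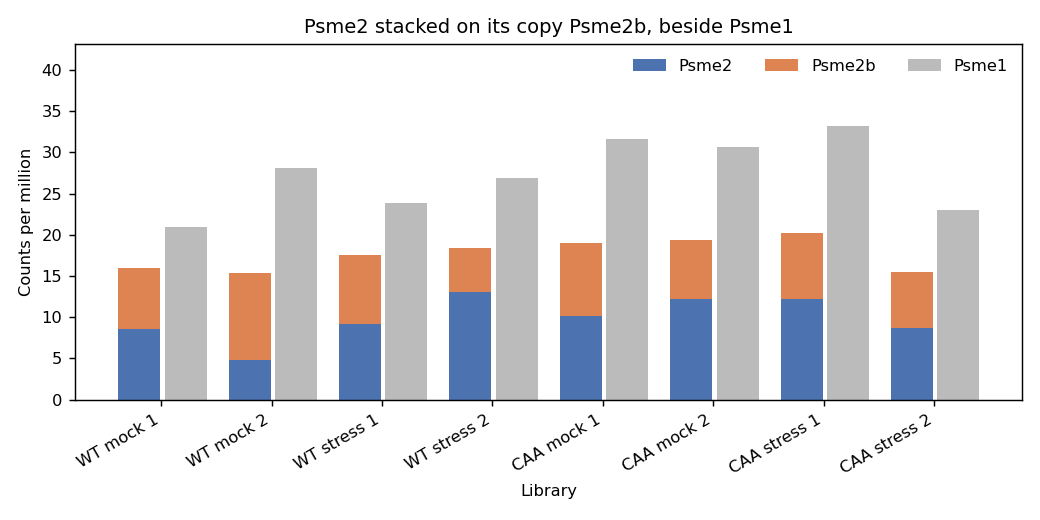
CPM in each library for Psme2 (blue) stacked on its copy Psme2b (orange), beside Psme1 (grey). The division between the copies changes from library to library, with Psme2 at 31.4% of the pair in WT mock 2 and 71.0% in WT stress 2, while the stacked height stays between 15.4 and 20.2.

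The chaperones assemble the particle and are not part of the finished proteasome. They ranged from Psmg3, at 1.14 ± 0.21 FPKM, to Psmd10, at 12.4 ± 1.6, with a median of 8.01. In mean CPM, Psmd5 was highest of the chaperones at 57.8, and Psmd10 was at 18.4. Psmc3ip was at 1.29 ± 0.30 FPKM. Psma8, the alpha subunit of the testis, and Psmb11, the beta subunit of the thymus, matched the name but had 2 to 10 and 0 to 12 counts, and were left out by the count minimum.

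No proteasome gene passed an adjusted p of 0.05 in any of the 7 comparisons (edgeR quasi-likelihood test, Benjamini-Hochberg over the 17182 genes tested). Few genes of the whole table did: 0.0116% for CAA against WT averaged over mock and stress, 0.0116% under mock and 0.0116% under stress, and 0% for stress averaged over WT and CAA, stress in WT, stress in CAA and the interaction. DESeq2 and limma on log2 FPKM also passed 0 of the 46 in each comparison, and so did edgeR without WT mock 1 and CAA stress 1 and without WT mock 1 and CAA mock 2. Bulk RNA cannot tell fewer cells of a type from less RNA per cell. The smallest p that an exact permutation test (two-sided) of 1 gene could reach with 2 libraries a side was 0.333.

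The intervals show how large a difference these data leave room for. For CAA against WT averaged over mock and stress, the 95% interval of the fold change lay within 1.5-fold in either direction for 42 of the 46 genes, against 50.7% of all genes tested. The count was 41 for stress averaged over genotype, against 53.6%. It was 36 and 28 for CAA under mock and under stress, against 31.9% and 24.8% of all genes. For stress in WT and in CAA it was 37 and 27, against 37.7% and 26.2%, and for the interaction 12, against 6.93%. Within 2-fold the count was 46 of 46 in both averaged comparisons. The shares of all genes are not matched for level, and intervals are wider at low counts. The median level was 26.3 FPKM over the 46 genes. It was 3.67 over the 16932 tested genes with FPKM above 0 in all 8 libraries.

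**Figure D3:**
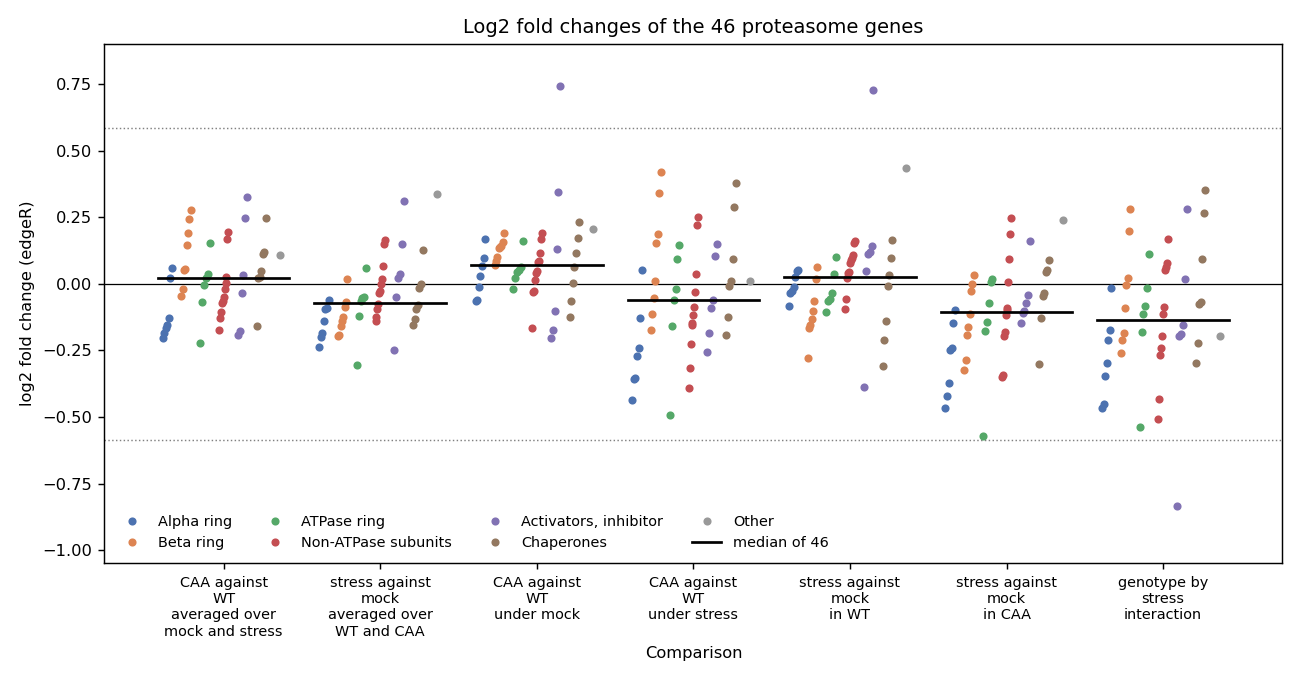
Log2 fold change of each of the 46 genes in the 7 comparisons, coloured by role, with the median as a black line and dotted lines at 1.5-fold. None passed the adjusted threshold. The points beyond 1.5-fold in single comparisons are those of Psme2, at 0.74 under mock and 0.73 for stress in WT, and in the interaction at -0.83.

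CAA against WT, averaged over mock and stress, left the set centred near 0, with a median log2 fold change of 0.02 over the 46 genes and 0.00 over all genes. Among the 46, 1 gene had an unadjusted p under 0.05 (2.17%, against 8.38% of all genes). This was Psmb10, with 38.8 against 32.1 mean CPM and a log2 fold change of 0.28 ± 0.12 (SE, adjusted p = 0.586 by edgeR). Psmb5 followed at 0.24 ± 0.11 (adjusted p = 0.598) and Psma3 at -0.20 ± 0.10 (adjusted p = 0.618). Psmb5 was at 0.15 without CAA mock 1. For Psmb6 and Psmb7 the 95% intervals were -0.10 to 0.48 and -0.25 to 0.20. The beta ring and the alpha ring had medians of opposite sign, 0.10 and -0.15, with 6 of 8 beta genes above 0 and 5 of 7 alpha genes below it. Of all genes, 50.2% were above 0. Without CAA mock 1 or without CAA stress 1, the median of the 46 was -0.04.

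Stress against mock, averaged over WT and CAA, gave a median of -0.07, with 34 of the 46 genes below 0, among them all 7 alpha ring genes and 7 of 8 beta ring genes. Of all genes tested, 50.6% were above 0. Of the 46, only Psmc6 had an unadjusted p under 0.05 (2.17%, against 3.82% of all genes), with 111 against 134 mean CPM and a log2 fold change of -0.30 ± 0.14 (SE, adjusted p = 0.920 by edgeR). Psmb7 was at -0.19 ± 0.10 and Psma4 at -0.20 ± 0.10, both with an adjusted p of 0.920. Psmc6 was at -0.18 without WT stress 2 and at -0.46 without WT stress 1. Without CAA stress 2 or without CAA mock 1 the median was -0.03. Other genes of general housekeeping had medians on the same side: -0.12 over 72 cytosolic ribosomal protein genes and -0.10 over 90 nuclear genes of the respiratory chain. In CAA against WT those lists had medians of 0.12 and 0.08.

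Under mock treatment alone, CAA against WT gave a median of 0.07, with 34 of 46 genes above 0, including all 8 of the beta ring, against 50.7% of all genes. Psme2 was the 1 gene with an unadjusted p under 0.05 (2.17%, against 4% of all genes), at 0.74 ± 0.32 (SE, adjusted p = 0.998 by edgeR), followed by Psme1 at 0.34 ± 0.21 and Psmd12 at 0.19 ± 0.15, each with the same adjusted p. With the counts of Psme2 and Psme2b summed, a choice made after seeing the data, the log2 fold change was 0.29 ± 0.19 (unadjusted p = 0.164 in the edgeR fit). Psme1 was at 0.15 without WT mock 1 and at 0.57 without WT mock 2. CAA mock 1 was the highest library for 13 of the 46 genes, and without it the median was -0.01. With all libraries, 72 of 72 cytosolic ribosomal protein genes (median 0.20) and 81 of 90 nuclear respiratory chain genes (median 0.115) were also above 0.

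Under stress, CAA against WT had a median of -0.06 and the widest spread of the 4 comparisons of single groups, an SD over the 46 genes of 0.22. Unadjusted p-values under 0.05 came from 5 genes (10.9%, against 8.22% of all genes). Of these, 4 were lower in CAA: Psma3 at -0.44 ± 0.15, Psmd14 at -0.39 ± 0.15, Psmc6 at -0.49 ± 0.20 and Psma4 at -0.36 ± 0.15. Psmb10 was higher, at 0.42 ± 0.17. All 5 had an adjusted p of 0.579 by edgeR. Without WT stress 1, no gene had an unadjusted p under 0.05, and Psmc6 was at -0.19. Without WT stress 2, Psmc6 was at -0.74. WT stress 1 is also the library with the high blood markers, whose part in these values was not tested.

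In WT, stress against mock gave a median of 0.02, and of -0.03 without WT stress 1. Psme2 was the 1 gene with an unadjusted p under 0.05 (2.17%, against 1.59% of all genes), at 0.73 ± 0.32 (SE, adjusted p = 0.9999 by edgeR). Psmb10 was at -0.28 ± 0.17 and Psme2b at -0.39 ± 0.30. The sum of Psme2 and Psme2b was at 0.20 ± 0.19. The WT mock 2 library, in which Psme2 was lowest and Psme2b highest, belongs to both comparisons in which Psme2 led, and without it the values of Psme2 were 0.39 under mock and 0.37 for stress in WT. Without WT mock 1 they were 1.21 and 1.20, and without WT stress 2 the value for stress in WT was 0.45. Psme2b for stress in WT ran from -0.75 without WT stress 1 to -0.10 without WT stress 2.

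In CAA, stress against mock gave a median of -0.11, with 33 of 46 genes below 0, while 51.4% of all genes were above 0. The medians were -0.21 over the 72 cytosolic ribosomal protein genes and -0.16 over the 90 nuclear respiratory chain genes. Of the 46 genes, 6 had an unadjusted p under 0.05, all lower under stress (13.0%, against 6.94% of all genes in either direction). They were Psmc6 at -0.57 ± 0.20, Psma2 at -0.47 ± 0.19, Psma3 at -0.42 ± 0.15, Psma4 at -0.37 ± 0.15, Psmd12 at -0.35 ± 0.15 and Psmd14 at -0.34 ± 0.15, each with an adjusted p of 0.696 by edgeR. CAA stress 2 was the lowest library for 16 of the 46 genes. Without CAA mock 2 the count was 1. Without CAA stress 2 none of the 46 had an unadjusted p under 0.05, the median was -0.06, and Psmc6 and Psma3 were at -0.42 and -0.34. Without the pair of libraries low in striatal markers the count was also 0, with a median of -0.17.

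The interaction asks whether the stress difference was the same in both genotypes. Its median was -0.13, and 2 genes had an unadjusted p under 0.05 (4.35%, against 3.46% of all genes): Psmd12 at -0.51 ± 0.21 and Psma3 at -0.47 ± 0.21. Psmd14 followed at -0.43 ± 0.21, and all 3 had an adjusted p of 0.995 by edgeR. Psmd14 was at -0.25 without the pair of libraries low in striatal markers. The count was 0 without CAA mock 1, CAA mock 2, CAA stress 2 or WT mock 2, and 4 without CAA stress 1. For Psmd12, stress against mock was 0.16 ± 0.15 in WT and -0.35 ± 0.15 in CAA. The comparisons above share libraries, so that the low values of Psma3, Psma4, Psmc6 and Psmd14 in CAA stress enter several of them at once.

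Within most libraries, how high or low a proteasome gene lay followed in part the base composition of its transcript. The share of G and C bases in the longest protein-coding transcript ran from 37.0% in Psmc6 to 58.3% in Psmd3. Across the 46 genes, the deviation of log2 CPM from the gene's own mean had a Spearman correlation with GC share of 0.74 in CAA stress 1, 0.50 in CAA mock 1 and 0.39 in CAA stress 2, and of -0.64 in WT stress 1, -0.50 in WT mock 2 and -0.41 in CAA mock 2. In WT mock 1 and WT stress 2 it was -0.20 and -0.18. The same correlations over 13527 tested genes had the same sign in each library, at 0.54, 0.26, 0.42, -0.51, -0.30, -0.32, -0.11 and -0.05 in that order. Transcript length also correlated with the deviations of the 46 genes. Its correlation was -0.58 in CAA stress 1, -0.48 in CAA mock 1 and 0.23 in CAA stress 2. It was 0.32 in WT stress 1, -0.05 in WT mock 2, -0.01 in CAA mock 2, 0.31 in WT mock 1 and 0.32 in WT stress 2. Genes are not independent replicates, and within a library all points share its depth and preparation, so these values are descriptions.

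The 15 genes of lowest GC share, from 37.0% to 47.9%, which include Psmc6, Psma2, Psma3, Psma4, Psmd12 and Psmd14, had a median deviation of -0.17 in CAA stress 1 and -0.21 in CAA stress 2, against 0.15 in WT stress 1. The 15 of highest GC share, from 52.6% to 58.3%, which include Psmb5, Psmb6 and Psmb10, were at 0.21, -0.05 and -0.05 in the same libraries. With the trend on GC removed in each library before the edgeR fit, a step added after seeing the data, none of the 5 genes under stress kept an unadjusted p under 0.05. Psma3 went from -0.44 to -0.15, Psmd14 from -0.39 to -0.17, Psmc6 from -0.49 to -0.09, Psma4 from -0.36 to -0.19 and Psmb10 from 0.42 to 0.21. The SD of the 46 log2 fold changes under stress went from 0.22 to 0.12. The correlation with GC share was negative in both WT stress libraries and positive in both CAA stress libraries. The GC trend and genotype therefore cannot be told apart in that comparison. For stress in CAA, the count at an unadjusted p under 0.05 went from 6 to 1, leaving Psmd12 at -0.31 ± 0.13, and the other 5 were at -0.25 (Psmc6), -0.21 (Psma2), -0.20 (Psma3), -0.26 (Psma4) and -0.18 (Psmd14). For stress in CAA and the interaction, the median of the 46 did not come nearer to 0 with the correction. It was -0.13 against -0.11 for stress in CAA and -0.15 against -0.13 for the interaction. It also moved away from 0 for stress averaged, from -0.071 to -0.080, and for CAA under mock, from 0.070 to 0.082. The median came nearer to 0 for CAA under stress, from -0.061 to -0.026. The same held for CAA averaged, from 0.021 to -0.003, and for stress in WT, from 0.025 to 0.016. Psme2 under mock and the interaction value of Psmd12 moved little, from 0.74 to 0.74 and from -0.51 to -0.46.

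**Figure D4:**
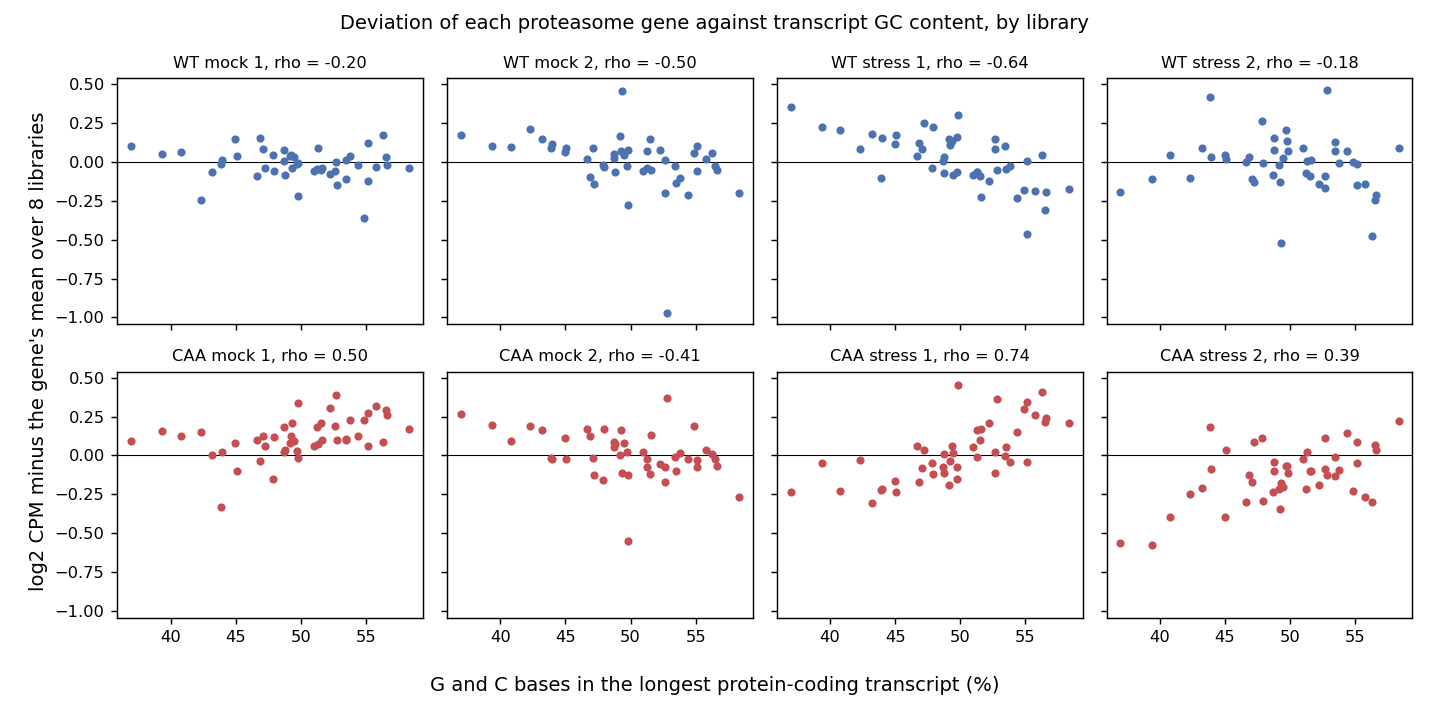
For each library, the deviation of each of the 46 genes from its mean log2 CPM over 8 libraries (vertical axis) against the percentage of G and C bases in its longest protein-coding transcript (horizontal axis), with Spearman's rho in the panel title. Points slope upward in CAA mock 1, CAA stress 1 and CAA stress 2 and downward in the other 5 libraries.

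Upstream sequence was searched for motifs known from proteasome and housekeeping promoters. RefSeq windows (GRCm38.p6) were matched by symbol for 39 of the 46 genes, 42 windows in all. The 250 bases before the RefSeq start were read on both strands. For some genes, such as Psmd12, the deposited annotation starts further upstream. The antioxidant response element core TGACNNNGC was in 5 windows, those of Psmb5, Psmb6, Psmc6, Psmd9 and Psmd12 (11.9%, against 11.4% of the windows of tested genes and 10.2% of all windows). An ETS-family core, CCGGAAG, was in 14 windows of 13 genes (33.3%, against 11.5% and 6.91%). The CCAAT box was in 31.0% (34.6% and 33.9%) and the GC box GGGCGG in 52.4% (54.1% and 32.7%). These shares are descriptions of the letters in the window, and no binding was measured.

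Of the 5 genes that recur among the smallest p-values in CAA under stress, stress in CAA and the interaction, Psmc6 and Psmd12 hold both motifs, and Psma3, Psma4 and Psmd14 hold neither in these windows. The ETS cores of Psmc6 and Psmd12 are shown in capitals, in 60 bases on the gene's strand, because this is the motif more frequent in these windows than in others. In Psmc6 it lies 100 to 94 bases before the RefSeq start (chr14:45329698-45329757, plus strand). In Psmd12 it lies 17 to 11 bases before the RefSeq start and on the opposite strand (chr11:107479468-107479527, plus strand). The deposited annotation starts Psmd12 at 107479484, so by that annotation this core lies inside the gene.
Psmc6: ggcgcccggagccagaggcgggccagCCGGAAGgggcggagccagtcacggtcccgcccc
Psmd12: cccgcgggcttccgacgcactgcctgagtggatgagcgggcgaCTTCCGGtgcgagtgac

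No gene of the lists that work with the proteasome passed the adjusted threshold either. The lists held 57 symbols of genes that supply, deliver or process substrates, control proteasome transcription or belong to the immunoproteasome pathway. Some symbols were alternative names of the same gene. Of the 57, 52 were found and tested under the listed symbol, and 0 of 52 passed the adjusted threshold in any of the 7 comparisons. Among 6 assembly, anchoring and hinge factors, Sem1, a small subunit of the regulatory particle, had 25.8 and 24.5 CPM in WT mock, 29.1 and 27.6 in WT stress, 35.7 and 33.7 in CAA mock, and 33.7 and 27.3 in CAA stress, with a log2 fold change of 0.28 ± 0.12 for CAA averaged (SE, adjusted p = 0.586 by edgeR). The ubiquitin receptor Adrm1 was at 0.33 ± 0.15 in that comparison. Of 13 deubiquitinases, shuttle factors and ubiquitin ligases, 10 were below 0 for CAA averaged (median -0.09), while 50.2% of all genes were above 0. Ubqln4 was at -0.20 ± 0.10 and the ligase Ube3a at -0.21 ± 0.11 (both adjusted p = 0.618 by edgeR).

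Of 7 genes for ubiquitin, its activating enzymes and a hydrolase, 6 were above 0 for CAA averaged (median 0.14), against 50.2% of all genes. Uchl1, the abundant neuronal ubiquitin hydrolase, had 416 and 392 CPM in WT mock, 400 and 478 in WT stress, 544 and 444 in CAA mock, and 585 and 610 in CAA stress. Only CAA mock 2 fell within the WT range, and the log2 fold change was 0.37 ± 0.11 (SE, adjusted p = 0.531 by edgeR). Nsfl1c, a cofactor of the p97 segregase, was at 0.26 ± 0.11 in the same comparison (adjusted p = 0.586).

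Among 10 transcription factors of proteasome genes and their regulators, the small Maf protein Mafk, a partner of Nfe2l1, had 11.8 and 13.3 CPM in WT mock, 12.1 and 14.9 in WT stress, 18.92 and 24.5 in CAA mock, and 27.0 and 15.5 in CAA stress. All 4 CAA libraries were above all 4 WT libraries, and the log2 fold change for CAA averaged was 0.72 ± 0.19 (SE, adjusted p = 0.508 by edgeR). Maff, of the same family, was at 0.73 ± 0.26 (adjusted p = 0.558 by edgeR). Of the 10 genes, 7 were above 0 in that comparison (median 0.046), against 50.2% of all genes. Nfe2l1 was not among the 2 smallest p-values of the list, and its value is not given. Of 9 immunoproteasome and peptide loading genes, the peptide transporter Tap1 was at 0.58 ± 0.26 and the interferon-responsive factor Irf1 at 0.44 ± 0.24 for stress averaged (both adjusted p = 0.920), at levels of 1.40 to 3.07 and 2.65 to 4.82 CPM.

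The other genes with the smallest p-values of these lists had smaller differences. For stress averaged, the assembly factor Pomp was at -0.15 ± 0.11 and the proteasome-bound thioredoxin Txnl1 at -0.20 ± 0.13, and Ddi2, the protease that activates Nfe2l1, was at 0.21 ± 0.14. Uba6, a ubiquitin-activating enzyme, was at -0.23 ± 0.14, Faf1, a p97 cofactor, at -0.13 ± 0.11, and the small Maf genes Maff and Mafg at 0.51 ± 0.26 and 0.19 ± 0.11. Each had an adjusted p of 0.920 by edgeR. For CAA averaged, the p97 cofactor Ubxn1 was at 0.15 ± 0.12 (adjusted p = 0.742) and Tapbp, which loads peptides onto class I molecules, at 0.20 ± 0.13 (adjusted p = 0.675).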

How the data were processed

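The deposited counts per gene came from reads aligned to mm10 (HISAT2 2.0.5) and assigned to genes (featureCounts 1.5.0-p3), per the submitters' processing notes, which give neither strand setting nor annotation. The authors' deposited FPKM table equals those counts divided by gene length and 1 denominator per library. Gene length, in bases, has the deposited annotation's values (other).

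Counts were fitted in edgeR 4.0.16 (R 4.3.3) with filterByExpr (minimum count 10), TMM scaling and a robust quasi-likelihood model of the 4 group means over all 8 libraries (17182 genes, 4 residual degrees of freedom), tested on simulated data. All 46 genes were tested. P-values are two-sided, adjusted by Benjamini-Hochberg over all genes tested with a threshold of 0.05. CPM values are TMM-scaled. Alternatives used DESeq2 1.42.0, limma 3.58.1 on log2(FPKM + 1) or + 0.1, and omission of each library. GC shares are from GENCODE vM21 transcripts (46 of 46 genes, 14672 of 17182 tested), and Psme2 and Psme2b were aligned with Biopython 1.88.

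Genes named are Psmb5, Psmb6, Psmb7 and Psmb10, the 3 smallest unadjusted p-values per comparison, the highest and lowest FPKM per role, genes varying at least 2-fold, genes dropped and, per pathway list, the 2 smallest p-values in the averaged comparisons. For 1 pathway gene so chosen, values are not reported here. Psma2 and the other genes at an unadjusted p under 0.05 outside this rule were named after their values were seen. The members and lists were chosen with earlier results of these data known. Replicates of a group differed by more than sampling of counts allows, with a chi-square divided by its degrees of freedom of 19.5 to 37.0.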

Additional observations from a re-analysis of the deposited data

How the results depend on the processing

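The count of proteasome genes past the adjusted threshold was 0 in each of 130 recomputed counts, which cover the 7 comparisons under every alternative run for them. The 21 named gene values kept their sign and missed the threshold in each alternative, with a smallest adjusted p of 0.147 (Psmc6, stress in CAA, edgeR with no filter on low counts). Counts at an unadjusted p under 0.05 were less steady: with every library left out in turn, they ran from 0 to 6 for CAA under stress (5 with all libraries), from 0 to 8 for stress in CAA (6; 8 without CAA stress 1), from 0 to 5 for stress averaged (1; 5 without CAA stress 1), from 0 to 4 for CAA averaged (1; 4 without CAA stress 2) and from 0 to 4 for the interaction (2). Unfiltered limma on log2(FPKM + 1) gave 9 for CAA under stress, 9 for stress in CAA, 5 for CAA averaged and 3 for stress averaged; GC correction gave 0, 1, 0 and 0; the cause was not tested. In the 6 libraries with Y-linked counts the medians were -0.05 for CAA averaged and -0.17 for stress in CAA, against 0.02 and -0.11. Among the 32 structural subunits the medians were -0.10 for CAA under stress and -0.14 for stress in CAA. Replicate numbers were shared between groups, and deviations of same-numbered libraries correlated at -0.27 to 0.14. These deviations also hold the Xist, regional and blood marker differences given above, so the correlations cannot exclude a shared batch. With the replicate block 0 genes passed in each comparison, and 0, 0, 5 and 4 had an unadjusted p under 0.05 for CAA averaged, stress averaged, CAA under stress and stress in CAA. With 2 libraries a group, differences under about 1.5-fold in single-group comparisons could not be told from the spread for many genes.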
